A study of Mus musculus with 6 samples.

Results

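The genes described here are DNA repair genes of 6 name families: Fanc, Xrcc, Ercc, Rad, Parp and the pair Brca1 and Brca2. They were chosen by symbol alone (Fanc followed by a letter, Brca1 or Brca2, and Xrcc, Ercc, Rad or Parp followed by a number), and 58 of the 16862 genes in the table met that rule. Their RNA was sequenced from the gonads of male C57BL/6 mouse embryos at E13.5, a stage counted in days of embryonic life. One group, KO, was L/H-Pgds-/-, without the lipocalin-type (Ptgds) and hematopoietic-type (Hpgds) prostaglandin D synthases, and held 3 libraries numbered 5, 7 and 8. The other, WT, was wild type and held 3 libraries numbered 1, 3 and 4. The labels speak of different littermates, and each library is treated here as 1 embryo, but no litter, batch or pairing is given. They name no transgene, no Cre and no treatment, and they do not say which part of either gene was deleted. Whole gonads were sequenced, so fewer cells of a type and less RNA per cell cannot be told apart.

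Cells repair DNA through several routes. The Fanconi anaemia proteins act on crosslinks between DNA strands, with a core complex that attaches ubiquitin to the pair Fancd2 and Fanci. Homologous recombination copies an intact sister sequence, with Brca1 and Brca2 among its main proteins. The Xrcc5 and Xrcc6 proteins hold broken ends for direct joining, Xrcc1 and Parp1 work on single-strand breaks, and the Ercc proteins cut out bulky lesions. In fetal gonads repair is tied to the germ line: loss of several Fanconi genes in mice leaves few germ cells, and at this stage the male germ cells are leaving the cell cycle. Several genes carry a repair name but are known for other work, among them Rad21 (cohesin), Rad54l2 (a helicase that binds the androgen receptor), Ercc6l (a helicase of mitotic chromosomes), Parp4 (the vault particle) and Xrcc6bp1 (a mitochondrial protease).

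Promoter sequences are shown for 4 of the genes that changed, because these had the largest rises (Fanca, Ercc6 and Parp4) and the fall (Fance) among changed genes for which the RefSeq table held at least 100 bases outside annotated exons. They are RefSeq sequences on GRCm38.p6, written 5′ to 3′ on the strand of the gene. Those of Fanca and Ercc6 are the 250 bases before the annotated start, that of Parp4 the 193 bases before it, and that of Fance the stretch between 250 and 12 bases before it. Capitals mark matches to an NF-Y box (CCAAT) or a GC box (GGGCGG), read on both strands. The Fanca window lies at chr8:123318577-123318826 on the minus strand. The Ercc6 window lies at chr14:32513271-32513520, the Parp4 window at chr14:56575426-56575618 and the Fance window at chr17:28313280-28313518, all on the plus strand.
Fanca: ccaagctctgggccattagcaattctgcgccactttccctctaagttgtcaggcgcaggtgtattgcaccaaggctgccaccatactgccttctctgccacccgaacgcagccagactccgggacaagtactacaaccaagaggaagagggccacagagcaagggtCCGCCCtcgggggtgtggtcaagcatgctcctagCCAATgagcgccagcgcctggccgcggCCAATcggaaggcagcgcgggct
Ercc6: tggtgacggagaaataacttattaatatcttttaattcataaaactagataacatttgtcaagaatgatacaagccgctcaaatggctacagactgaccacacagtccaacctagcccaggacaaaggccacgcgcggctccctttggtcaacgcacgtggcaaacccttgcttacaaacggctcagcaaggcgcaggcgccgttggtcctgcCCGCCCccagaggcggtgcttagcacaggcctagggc
Parp4: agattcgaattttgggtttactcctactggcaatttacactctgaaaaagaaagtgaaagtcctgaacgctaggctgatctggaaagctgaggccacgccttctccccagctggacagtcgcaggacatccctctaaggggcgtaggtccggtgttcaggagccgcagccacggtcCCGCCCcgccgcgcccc
Fance: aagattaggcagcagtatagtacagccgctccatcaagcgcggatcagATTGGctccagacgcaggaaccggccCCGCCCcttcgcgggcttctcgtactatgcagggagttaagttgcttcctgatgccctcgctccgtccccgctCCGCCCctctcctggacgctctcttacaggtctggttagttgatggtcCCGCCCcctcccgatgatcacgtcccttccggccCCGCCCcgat
The Fanca window has a GC content of 61.6% and holds 2 NF-Y boxes and 1 GC box. The Fance window, at 62.3% GC, holds 1 NF-Y box and 4 GC boxes. The windows of Ercc6 and Parp4 have 52.4% and 57.5% GC, and each holds 1 GC box and no NF-Y box.

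A promoter window of 250 bases before the start was at hand for 43 of the 58 genes, matched by gene identifier, and 4 motifs were searched on both strands. A core E2F site (TTCCCGC or TTTGGCG) was present in 10 of the 43 repair gene windows, or 23.3%, against 4.99% of all 27025 windows. The repair gene windows also held the NF-Y box in 48.8%, against 34.5% of all windows. The GC box was present in 53.5% of them, against 32.9% of all windows. The CHR motif (TTTGAA), a promoter element of mitotic genes, was present in 4.65%, against 16.3% of all windows. By change in KO gonads, an E2F core stood in 3 of 8 windows of genes that rose and in 0 of 3 windows of genes that fell. The NF-Y box and the GC box each stood in 5 of 8 windows of genes that rose and in 2 of 3 windows of genes that fell. These are matches of letters in a window and show no binding.

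The table gives upper-quartile normalised pseudo-counts, called normalised values below, which the authors made from their reads. They are fractional, so the sequencing depth is unknown and no interval for counting error is given. They summed to between 21657342 and 21846849 in KO libraries and to between 22881124 and 23734462 in WT libraries. Ptgds, the targeted gene, had normalised values of 15.2, 4.0 and 2.94 in KO gonads, against 6560.1, 8137 and 8712 in WT gonads (log2 change -10.15, SE 0.42, limma adjusted p = 3.41e-06). Hpgds averaged 92.9 ± 9.32 in KO gonads and 49.2 ± 5.21 in WT gonads (SD, n = 3 each), and its log2 change was 0.90 (SE 0.21, adjusted p = 0.00853). The call of Hpgds as higher in KO gonads was lost with the length and GC trend removed (log2 change 0.60, adjusted p = 0.0917). Its values do not check the labels, since these do not say what was deleted. WT library 1 stood apart. Its correlation across genes (Pearson's r of log2 values) with the other WT libraries was 0.966 and 0.978, whereas the KO libraries correlated with each other at 0.986 to 0.990. WT library 3 correlated with WT library 4 at 0.986 and with the KO libraries at 0.979 to 0.985, above its 0.966 with WT library 1. The libraries thus did not group by genotype alone. Germ cell, Sertoli cell and fetal Leydig cell markers were all present, and 0 marker values were at 0 in any library.

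Of the 58 repair genes, 12 rose and 4 fell in KO gonads, and 42 did not pass the threshold. All 58 passed the filter on low values, which asked for 3 or more libraries with a normalised value of 10 or more. The test was limma's moderated test on log2(normalised value + 1), with p-values adjusted by Benjamini-Hochberg over the 15116 genes tested, and the threshold was 0.05. Among all genes tested, 17.3% rose and 17.0% fell, so the share of repair genes that rose (20.7%) lay near that of all genes, and the share that fell (6.90%) lay below it. The median log2 change of the repair genes was 0.09, against -0.03 for all genes tested. The changes were small: the log2 changes ran between -0.46 (Fance) and 0.84 (Fanca), 4 genes changed by at least 1.5-fold, and 0 changed by at least 2-fold. In 20 of the 58 genes every KO library lay above every WT library, and in 11 every KO library lay below, against 24.7% and 25.6% of all genes tested. Of all genes tested that rose, 2590 of 2609 had every KO library above, and of those that fell, 2525 of 2571 had every KO library below. Such separation in a gene past the threshold therefore adds little to its call.

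Calls in this comparison followed transcript length and GC content over all genes. Both were those of a gene's longest protein-coding transcript, and together they carried 42.0% of the variance in log2 change over all genes with both values. When the trend with length and GC content was removed in each library, 2 repair genes were higher in KO gonads (Fanca and Rad21) and 2 lower (Rad1 and Xrcc5), against 6.07% and 6.64% of the 14449 genes that could be fitted. With WT library 1 also left out, Fanca was the 1 gene still higher and Rad1 the 1 still lower. The median log2 change of the repair genes with the trend removed was 0.01. When every library was scaled to the same total instead, the log2 values of all genes shifted by a median of 0.10 between groups. In that scaling 17 repair genes were higher and 1 lower, and 67.5% of all calls were higher in KO gonads, against 50.4% as deposited.

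**Figure D1:**
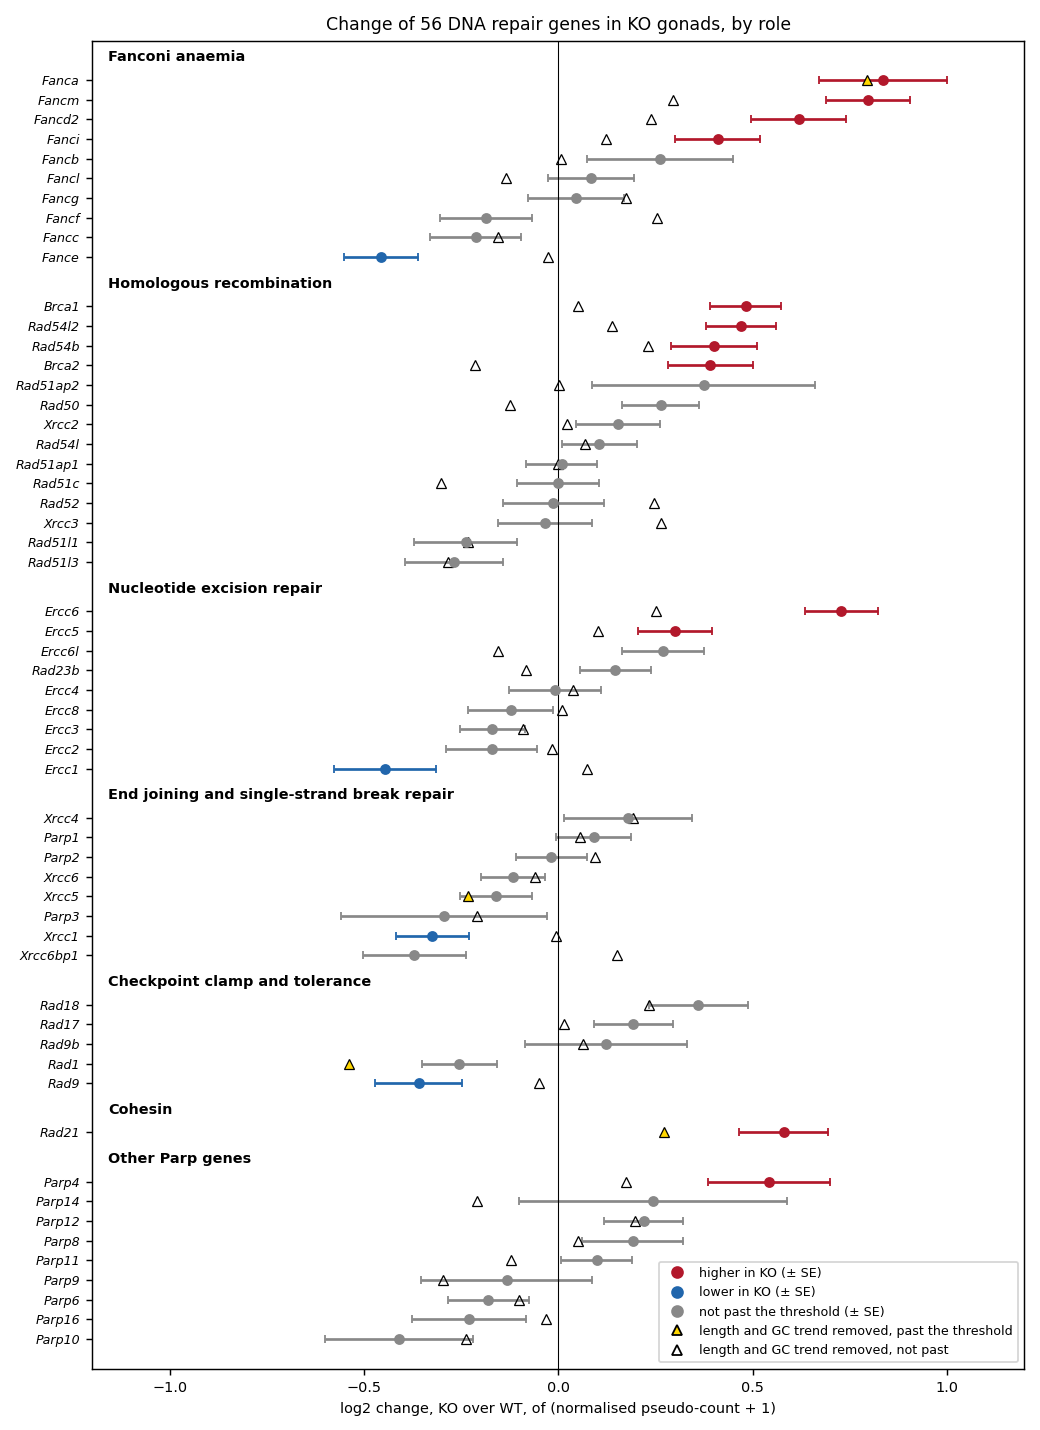
Each circle gives the log2 change (KO over WT) of 1 of 56 of the 58 DNA repair genes on the horizontal axis, with its SE, grouped by role. Red circles were higher in KO gonads, blue lower and grey not past the threshold. Triangles give the same change without the length and GC trend, filled where past the threshold (Fanca, Rad21, Rad1 and Xrcc5). The circles run between -0.46 and 0.84, and most triangles lie nearer to 0 than the red or blue circles of the same gene.

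The Fanconi anaemia group held the highest rises. Of its 10 genes, 4 rose (Fanca, Fancm, Fancd2 and Fanci), 1 fell (Fance) and 5 did not pass, with a median log2 change of 0.17. With the length and GC trend removed, 1 was higher (Fanca) and 0 lower. Counts in this role and in the roles below, each of few genes, stand against 17.3% of all genes tested that rose and 17.0% that fell. The genes that rose encode a core subunit (Fanca), the translocase that brings the core complex to DNA (Fancm) and the pair that receives ubiquitin (Fancd2 and Fanci). Fance, which fell, encodes the core subunit that contacts Fancd2.

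Fanca lies on chromosome 8 from 125795105 to 125842476 (mm9, the build of the table). It had normalised values of 379, 406 and 470.3 in KO libraries 5, 7 and 8, against 218, 289.8 and 199.7 in WT libraries 1, 3 and 4. Every KO library lay above every WT library, and the closest pair were KO 5 and WT 3. Fanca averaged 418 ± 47.1 in KO gonads and 236 ± 47.6 in WT gonads (SD, n = 3 each), a 1.78-fold difference with a log2 change of 0.84 (SE 0.16, adjusted p = 0.00446). Its log2 change was 0.80 (adjusted p = 0.00949) with the length and GC trend removed, so it was about as large in both. Fancm (chromosome 12, 66176593 to 66233045) had 657, 626 and 612 in KO libraries, against 340.0, 383 and 368 in WT libraries. The groups were far apart and the libraries of each lay close together. The log2 change of Fancm was 0.80 (SE 0.11, adjusted p = 0.00166).

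Fancd2 (chromosome 6, 113481676 to 113546279) had normalised values of 648, 786 and 725 in KO libraries, against 506, 488 and 411 in WT libraries. All KO libraries were higher, and the log2 change was 0.62 (SE 0.12, adjusted p = 0.00464). Fanci, its partner, averaged 615 ± 18.3 in KO gonads and 464 ± 41.2 in WT gonads (SD, n = 3 each), with a log2 change of 0.41 (SE 0.11, adjusted p = 0.0165). Fanci overlaps Polg in the table, and reads shared by both genes could have been counted for either. Fance (chromosome 17, 28450475 to 28463519) ran the other way, with 941, 847 and 882 in KO libraries, against 1259, 1123 and 1285 in WT libraries. Every KO library lay below every WT library. The log2 change of Fance was -0.46 (SE 0.10, adjusted p = 0.0059).

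The 5 Fanconi genes that did not pass had log2 changes of 0.26 (Fancb), 0.08 (Fancl, the ubiquitin ligase of the core), 0.05 (Fancg), -0.19 (Fancf) and -0.21 (Fancc). The calls of Fanca, Fancm, Fancd2 and Fance held whichever library was left out, and that of Fanci was lost without KO library 5 (adjusted p = 0.0635) or WT library 4 (adjusted p = 0.0697). With the length and GC trend removed, the log2 changes of Fancm (0.29), Fancd2 (0.24), Fanci (0.12) and Fance (-0.03) no longer passed the threshold.

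**Figure D2:**
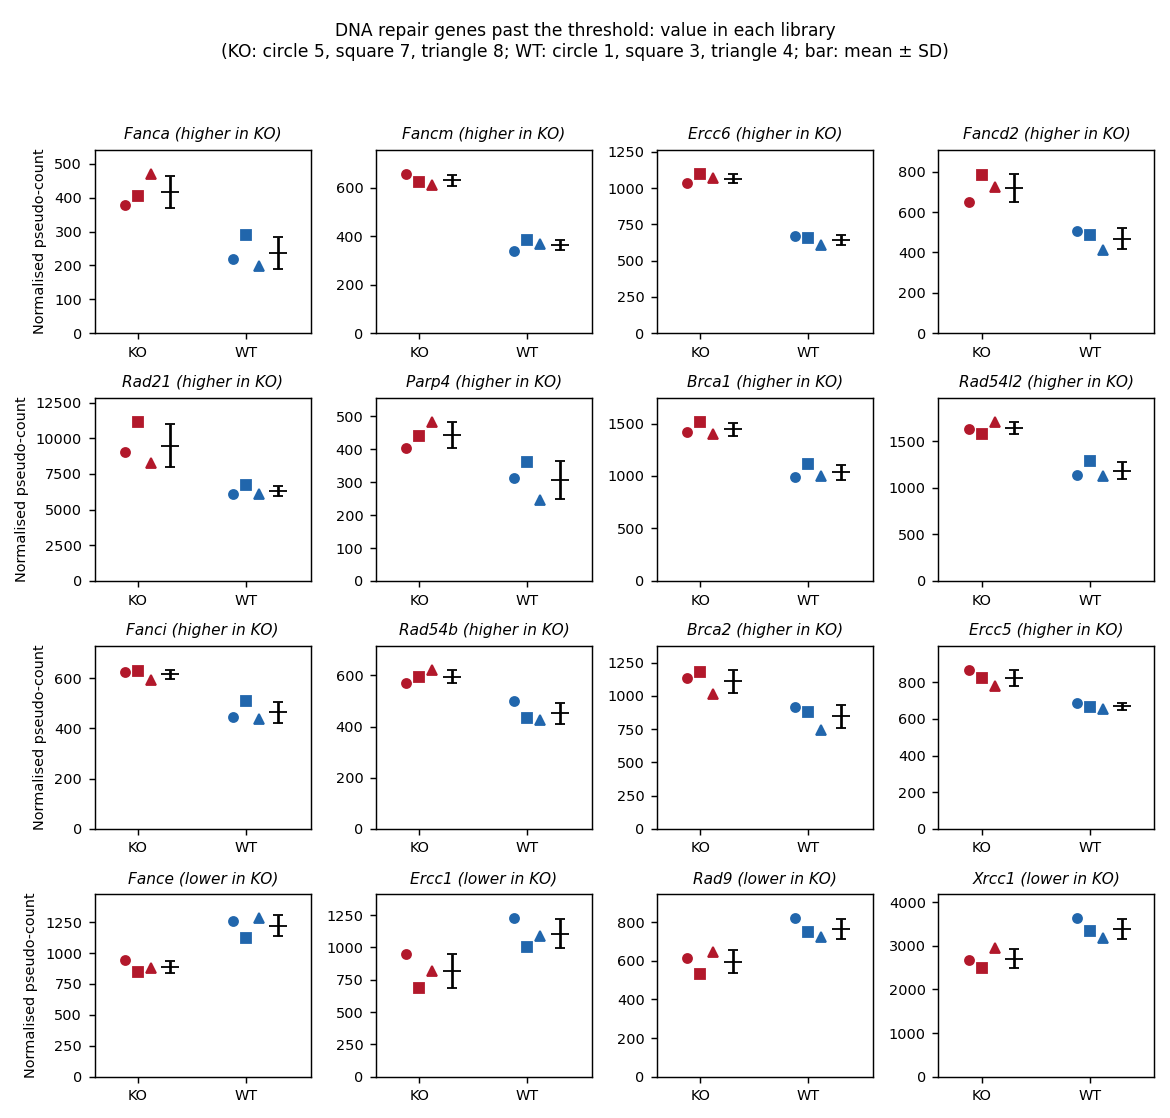
The normalised value of each of the 16 DNA repair genes past the threshold is plotted in every library, with KO left of WT in each panel and the mean ± SD beside the points. In all 16 panels the KO points and the WT points do not overlap, with the 12 higher genes first and the 4 lower genes (Fance, Ercc1, Rad9 and Xrcc1) last. The genes were chosen by the threshold on these same values, and most called genes of the whole table are likewise without overlap.

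In the homologous recombination group, 4 of 15 genes rose, 0 fell and 11 did not pass, with a median log2 change of 0.10. Those that rose were Brca1 (a ubiquitin ligase that directs breaks to recombination), Brca2 (a mediator of strand invasion), Rad54b (a helper of strand exchange) and Rad54l2, which shares the Rad54 name but is known as a partner of the androgen receptor.

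Brca1 (chromosome 11, 101350078 to 101413269) had normalised values of 1418, 1515 and 1402 in KO libraries, against 990.3, 1115 and 1001 in WT libraries. The KO libraries all lay higher, and the log2 change was 0.48 (SE 0.09, adjusted p = 0.0037). Rad54l2 (chromosome 9, 106590411 to 106691544) had 1637, 1579.6 and 1709 in KO libraries, against 1136, 1289 and 1133 in WT libraries. Its groups were likewise apart, with a log2 change of 0.47 (SE 0.09, adjusted p = 0.00413). Rad54b (chromosome 4, 11486067 to 11542955) had 571, 593 and 622 in KO libraries, against 498, 432 and 425 in WT libraries. The highest WT library, WT 1, came close to the lowest KO library, and the log2 change was 0.40 (SE 0.11, adjusted p = 0.0196). Rad54b overlaps Fsbp in the table.

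Brca2 (chromosome 5, 151325198 to 151372324) had normalised values of 1134, 1181 and 1012 in KO libraries, against 913, 879.8 and 747 in WT libraries. KO 8 was the lowest KO library and WT 4 the lowest WT library. The log2 change of Brca2 was 0.39 (SE 0.11, adjusted p = 0.0202). Among the 11 genes that did not pass, log2 changes ran between -0.27 (Rad51l3) and 0.37 (Rad51ap2). Rad50, which tethers broken ends, had a log2 change of 0.26 (adjusted p = 0.0638) with all KO libraries above all WT libraries, and Rad51c had the same mean normalised value, 646, in KO and WT gonads.

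The calls of Brca1 and Rad54l2 held whichever library was left out. Rad54b was lost without KO 5 (adjusted p = 0.0508), KO 8 (0.0584), WT 3 (0.0524) or WT 4 (0.0786), and Brca2 without KO 5 (0.0741), KO 7 (0.0546) or WT 4 (0.0892), or without the mean-dependent prior (0.0519). After the length and GC trend had been removed, 0 of the 15 genes passed, and the log2 change of Brca2, whose transcript of 10724 nt is the longest of the 58, turned to -0.21 (adjusted p = 0.139).

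In nucleotide excision repair, with Ercc6l counted here by its name, 2 of 10 genes rose (Ercc6 and Ercc5), 1 fell (Ercc1) and 7 did not pass. Their median log2 change was -0.06. Ercc6 (CSB) starts repair where RNA polymerase has stalled, and Ercc5 (XPG) cuts on the 3′ side of a lesion. Ercc1 is the partner of Ercc4 (XPF), the nuclease that cuts on the 5′ side.

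Ercc6 (chromosome 14, 33326707 to 33394175) had normalised values of 1035, 1097 and 1067 in KO libraries, against 668, 657 and 605 in WT libraries. The groups stood far apart. The difference was 1.66-fold with a log2 change of 0.73 (SE 0.09, adjusted p = 0.00143), and among the 58 genes it had the lowest adjusted p. Ercc8 (CSA), which works beside Ercc6, had a log2 change of -0.12 (adjusted p = 0.404). Ercc5 (chromosome 1, 44204589 to 44238105) had 867, 826 and 779 in KO libraries, against 689, 666 and 652 in WT libraries. The KO libraries were all higher, by a log2 change of 0.30 (SE 0.10, adjusted p = 0.0343).

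Ercc1 (chromosome 7, 19930420 to 19940710) had normalised values of 948, 683 and 816 in KO libraries, against 1229, 1003 and 1087 in WT libraries. KO 5 came close to WT 3, and the log2 change was -0.45 (SE 0.13, adjusted p = 0.025). Its partner Ercc4 averaged 535 ± 59.7 in KO gonads and 536 ± 28.6 in WT gonads (SD, n = 3 each), a log2 change of -0.01 (adjusted p = 0.966). Rad23b, which stabilises the lesion sensor Xpc, had a log2 change of 0.15, and Ercc2 and Ercc3, helicases of transcription factor TFIIH, both had -0.17. Ercc6l had a log2 change of 0.27 (adjusted p = 0.0717) with all KO libraries above all WT libraries.

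The call of Ercc6 held whichever library was left out. Ercc5 was lost without KO 5 (adjusted p = 0.134), KO 7 (0.0563), WT 1 (0.0563), WT 3 (0.0702) or WT 4 (0.11), and under quantile normalisation (0.0594). Ercc1 was lost without KO 7 (0.0669), KO 8 (0.0547), WT 1 (0.0611) or WT 4 (0.0705), and with equal totals (0.0635) or without the mean-dependent prior (0.0685). Without the length and GC trend 0 of the 10 genes passed, and the log2 changes of Ercc6, Ercc5 and Ercc1 were 0.25 (adjusted p = 0.0653), 0.10 (adjusted p = 0.457) and 0.07 (adjusted p = 0.682), with that of Ercc1 turned in sign.

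Of 8 genes of end joining and single-strand break repair, with Xrcc6bp1 counted here by its name, 0 rose, 1 fell (Xrcc1) and 7 did not pass. Their median log2 change was -0.14. Xrcc1, the scaffold of single-strand break repair (chromosome 7, 25332169 to 25358457), had normalised values of 2683, 2493 and 2946 in KO libraries, against 3642, 3332 and 3188 in WT libraries. All KO libraries were lower, and the log2 change was -0.32 (SE 0.09, adjusted p = 0.0225). Parp1, the sensor that recruits Xrcc1 (chromosome 1, 182499106 to 182531385), had 9336, 8708 and 9647 in KO libraries, against 7830.2, 9448 and 8782 in WT libraries. The groups overlapped, and the log2 change was 0.09 (SE 0.10, adjusted p = 0.491).

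The Ku pair, Xrcc5 and Xrcc6, had log2 changes of -0.16 (adjusted p = 0.199) and -0.12 (adjusted p = 0.297). Parp2, a second sensor of breaks, had -0.02, Parp3 had -0.29, Xrcc4, the partner of DNA ligase IV, had 0.18, and Xrcc6bp1 had -0.37 (adjusted p = 0.0532). The call of Xrcc1 was lost without KO 5 (adjusted p = 0.0742), KO 7 (0.0524) or WT 1 (0.0817), and under quantile normalisation (0.0568), equal totals (0.0934) or no mean-dependent prior (0.0635). With the length and GC trend removed, the log2 change of Xrcc1 was -0.01 (adjusted p = 0.959), while Xrcc5 passed with -0.23 (adjusted p = 0.0431); Parp1 passed under quantile normalisation with 0.28 (adjusted p = 0.05, just under the threshold before rounding).

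Among 5 genes of the checkpoint clamp and of damage tolerance, 0 rose, 1 fell (Rad9) and 4 did not pass. Rad9, a subunit of the ring-shaped clamp that signals damage (chromosome 19, 4195420 to 4201603), had normalised values of 615, 531 and 643 in KO libraries, against 823, 748 and 722 in WT libraries. The KO libraries were all lower, with a log2 change of -0.36 (SE 0.11, adjusted p = 0.0309). Rad17, which loads the clamp (chromosome 13, 101387119 to 101421014), had 1007, 1107 and 907 in KO libraries, against 906, 835 and 894 in WT libraries. KO 8 and WT 1 were nearly equal, and the log2 change was 0.19 (SE 0.10, adjusted p = 0.169). Rad1, another clamp subunit, averaged 678 ± 39.7 in KO gonads and 808 ± 24.2 in WT gonads (SD, n = 3 each), with a log2 change of -0.26 (adjusted p = 0.0639).

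Rad18, the ubiquitin ligase that starts bypass of damage, had a log2 change of 0.36 (adjusted p = 0.0514), and Rad9b had 0.12. The call of Rad9 held without KO 8 but was lost without KO 5 (adjusted p = 0.0703), KO 7 (0.0772), WT 1 (0.0899), WT 3 (0.0547) or WT 4 (0.0604), and with equal totals (0.105) or no mean-dependent prior (0.0563). With the length and GC trend removed, the log2 change of Rad9 was -0.05 (adjusted p = 0.757) and that of Rad1 was -0.54 (adjusted p = 0.00783); Rad17 passed only with equal totals (0.30, adjusted p = 0.0493).

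Rad21, the subunit that closes the cohesin ring holding sister chromatids together, rose. It lies on chromosome 15 from 51794150 to 51823306 and had normalised values of 9017, 11146 and 8301 in KO libraries, against 6104, 6725 and 6080.4 in WT libraries. All KO libraries were above all WT libraries, and KO 7 was the highest. Rad21 averaged 9488 ± 1479.9 in KO gonads and 6303 ± 365 in WT gonads (SD, n = 3 each), with a log2 change of 0.58 (SE 0.11, adjusted p = 0.00453). Leaving out any 1 library kept the adjusted p at or below 0.0256. Removal of the length and GC trend left a log2 change of 0.27 (adjusted p = 0.0497), and the adjusted p was 0.075 when WT 1 was also left out.

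Of 9 other Parp genes, which encode enzymes that attach ADP-ribose, 1 rose (Parp4), 0 fell and 8 did not pass. Parp4 (chromosome 14, 57194456 to 57278635) had normalised values of 404, 441 and 483 in KO libraries, against 313, 362 and 246 in WT libraries. The groups were apart, with WT 3 nearest to KO 5, and the log2 change was 0.54 (SE 0.16, adjusted p = 0.0228). Parp12 (chromosome 6, 39036411 to 39068348) had 1145, 1277 and 1103 in KO libraries, against 994, 931 and 1103 in WT libraries. KO 8 and WT 4 were at the same rounded value, and the log2 change was 0.22 (SE 0.10, adjusted p = 0.12).

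The other Parp genes had log2 changes between -0.41 (Parp10) and 0.24 (Parp14). The call of Parp4 was lost without KO 7 (adjusted p = 0.0541), KO 8 (0.075) or WT 4 (0.0887) and without the mean-dependent prior (0.0508), and once the length and GC trend was taken out the log2 change of Parp4 was 0.17 (adjusted p = 0.428). Parp12 passed only with equal totals (0.32, adjusted p = 0.031).

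The levels themselves spanned a wide range. Per kilobase of the longest protein-coding transcript, Rad21 had the highest level of the 58 genes in KO gonads and Parp1 the highest in WT gonads. Rad21 stood at 2398 in KO gonads and 1593 in WT gonads, in mean normalised value per kilobase. Parp1 stood at 2383 in KO gonads and 2243 in WT gonads on the same scale. Xrcc1 (1071 in KO, 1339.9 in WT) and Rad23b (1318 in KO, 1192 in WT) came next in both groups, with their order exchanged. The lowest level was that of Parp14, at 7.26 in KO gonads and 6.39 in WT gonads. These levels depend on the transcript taken as the length of each gene.

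Transcript length separated the genes that rose from those that fell. The median length was 5949.5 nt for the 12 genes that rose, 2053 nt for the 4 that fell and 3002.5 nt for the 42 that did not pass. At the median of the 58 genes, 3170 nt, 11 of 29 longer genes rose and 0 fell, against 31.7% and 4.22% of the 7079 longer genes of all tested. Of 29 shorter genes, 1 rose (Rad54b) and 4 fell, against 4.34% and 30.3% of the 7370 shorter genes. Across the 58 genes the log2 change correlated with transcript length at Pearson's r = 0.65 (Spearman's rho = 0.64) and with GC content at r = -0.57 (rho = -0.60). Over the 14449 genes the correlation was r = 0.42 (rho = 0.60) with length and r = -0.47 (rho = -0.52) with GC content. These are correlations across genes of the same 6 libraries and are given as a description. The part of length and GC content in each call was not tested beyond removal of the trend.

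**Figure D3:**
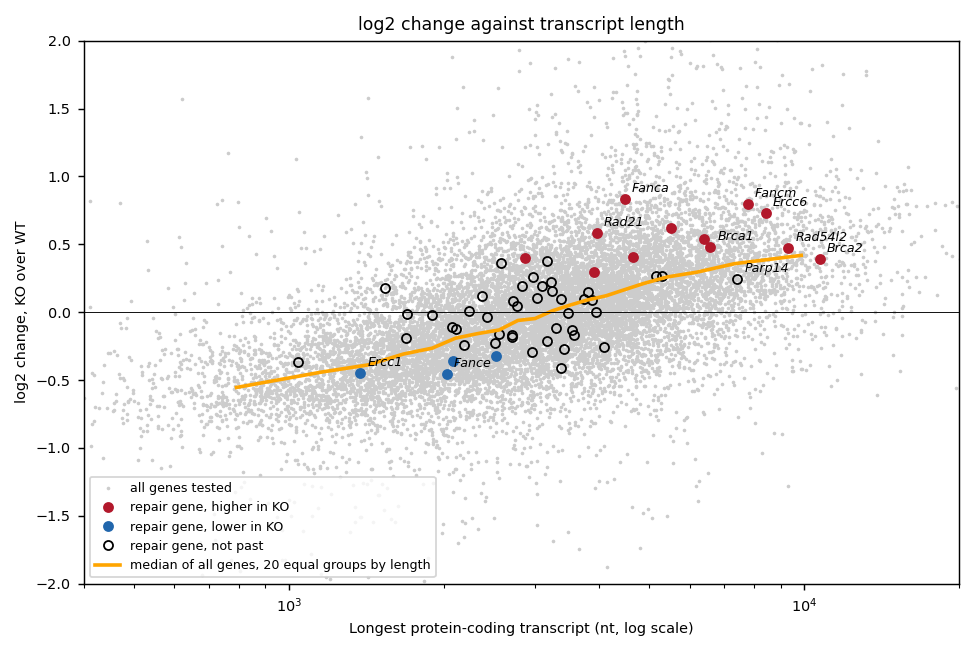
The log2 change (KO over WT) is plotted against the length of the longest protein-coding transcript (nt, log scale) for all 14449 genes with a length (grey, 87 of them outside the axes) and for the 58 repair genes (red higher, blue lower, open not past the threshold). The orange line joins the median changes of 20 equal groups of genes by length. It climbs from left to right, and most repair genes lie near it, while Fanca lies well above it.

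Cell type and cell cycle markers were set beside these changes. Of 12 germ cell markers, 2 rose (Kit and Ddx4) and 1 fell (Utf1), and their summed normalised values ranged between 28497 and 43815 in KO libraries and between 27162 and 41699 in WT libraries. Of 10 Sertoli cell markers, 0 rose and 1 fell, which was Ptgds itself, and the sums ranged between 81919 and 109713 in KO libraries and between 105074 and 139899 in WT libraries. These sums include Ptgds, which stood at 2.94 to 15.2 in KO libraries and at 6560.1 to 8712 in WT libraries. Part of the difference in sums is therefore that of the targeted gene. Of 6 fetal Leydig cell markers, 0 rose and 2 fell (Hsd3b1 and Ren1), with sums of 48843 to 69497 in KO libraries and 65270 to 107260 in WT libraries. All 6 had a negative log2 change, between -0.84 (Ren1) and -0.29 (Star), with a median of -0.43, and of -0.38 with the length and GC trend removed. Sums of the germ cell, Sertoli cell and Leydig cell lists overlapped between the groups. Without the length and GC trend, 0 germ cell markers were higher and 0 lower, and 0 Leydig cell markers were higher and 0 lower. Of the Sertoli cell markers 0 were then higher and 2 lower.

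Of 12 markers of proliferating cells, 2 rose (Mki67 and Top2a) and 1 fell (Mcm5), and their sums ranged between 66802 and 69300 in KO libraries and between 63787 and 68397 in WT libraries. With the length and GC trend removed, 0 of these 12 were higher and 3 lower. Of 6 endothelial markers, 1 rose (Kdr) and 1 fell (Emcn), with sums of 8406 to 9396 in KO libraries and 6689 to 9473 in WT libraries. Of 6 mesonephric markers, 1 rose (Cdh1) and 0 fell, with sums of 3123 to 3400 in KO libraries and 2599 to 3703 in WT libraries. Of 7 blood markers, 0 rose and 1 fell (Csf1r), with sums of 73209 to 110742 in KO libraries and 35016 to 125454 in WT libraries. With the trend removed, 1 endothelial marker was higher and 1 lower, 0 mesonephric markers were higher and 0 lower, and 0 blood markers were higher and 1 lower. The part of cell makeup in the changes of the repair genes was not tested.

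Other genes of the same pathways, outside the name families, were described from 4 lists. Of 104 tested, 37 rose and 13 fell, or 35.6% and 12.5%, against 17.3% and 17.0% of all genes tested. Their median transcript length was 3652.5 nt, and of all genes longer than 3170 nt, 31.7% rose and 4.22% fell. In damage signalling and bypass, 16 of 26 genes rose and 1 fell (median log2 change 0.41, median length 4458.5 nt), and once the length and GC trend was taken out 6 were higher and 2 lower. In repair of breaks and crosslinks, 15 of 34 rose and 5 fell (median log2 change 0.24, median length 3797.5 nt), and with the trend removed 3 were higher and 1 lower. Of 7 mismatch repair genes, 3 rose and 0 fell (median log2 change 0.03, median length 3946 nt), and with the trend removed 0 were higher and 1 lower. Base and nucleotide excision repair had 3 that rose and 7 that fell of 37 (median log2 change -0.14, median length 2184 nt), and with the trend removed 0 were higher and 5 lower. The median log2 change over the 104 genes was 0.11, and 0.06 with the trend removed.

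In signalling and bypass, Rif1, a regulator of break repair and of replication timing, had normalised values of 2831, 3840.0 and 2591 in KO libraries, against 1362, 1416 and 1452 in WT libraries. Every KO library lay well above every WT library, and the log2 change was 1.11 (SE 0.13, adjusted p = 0.00117). Rev1 and Rev3l, which work together to copy past damage, also rose. Rev1 averaged 526 ± 42.7 in KO gonads and 257 ± 26.0 in WT gonads (SD, n = 3 each), with a log2 change of 1.03 (SE 0.13, adjusted p = 0.00135). Rev3l, the catalytic subunit of polymerase zeta, averaged 2569.7 ± 246 in KO gonads and 1359 ± 155 in WT gonads (SD, n = 3 each), with a log2 change of 0.92 (SE 0.11, adjusted p = 0.00107).

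Among genes of breaks and crosslinks, 2 nucleases that cut branched DNA had the highest rises. Fan1, a crosslink nuclease that binds ubiquitinated Fancd2, had normalised values of 146, 142 and 202 in KO libraries, against 69.5, 74.1 and 60.0 in WT libraries. All KO libraries lay above all WT libraries, with a log2 change of 1.24 (SE 0.20, adjusted p = 0.00237). Gen1, which resolves Holliday junctions, had 214, 208 and 226 in KO libraries, against 79.2, 109 and 91.3 in WT libraries. The groups were again far apart, with a log2 change of 1.22 (SE 0.17, adjusted p = 0.00179). Dclre1c (Artemis, which opens hairpin ends) averaged 54.5 ± 8.17 in KO gonads and 23.7 ± 6.12 in WT gonads (SD, n = 3 each), with a log2 change of 1.19 (SE 0.29, adjusted p = 0.0106).

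In mismatch repair, Pms1 had a log2 change of 0.62 (adjusted p = 0.0196), Msh3 of 0.51 (adjusted p = 0.0146) and Msh6 of 0.40 (adjusted p = 0.00967). The calls of Pms1 and Msh3 were lost without KO 5 or WT 4, and that of Pms1 also without KO 7, with adjusted p up to 0.0631 for Pms1 and up to 0.0545 for Msh3. The calls of the other 10 genes named from these lists held whichever library was left out. The excision genes with the largest changes all fell. Nthl1, a glycosylase that removes oxidised bases, had a log2 change of -0.60 (adjusted p = 0.00868), and Gtf2h4 and Gtf2h5, subunits of TFIIH, had -0.50 (adjusted p = 0.00383) and -0.46 (adjusted p = 0.00763).

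In the values freed of the length and GC trend, 9 of the 104 genes were higher in KO gonads and 9 lower, against 6.07% and 6.64% of all genes that could be fitted. Among the genes named, Fan1 (log2 change 1.22), Gen1 (0.70), Rev1 (0.76), Rif1 (0.45) and Rev3l (0.32) passed as higher and Gtf2h5 (-0.56) as lower, whereas Dclre1c (0.57), Pms1 (0.35), Msh3 (0.25), Msh6 (0.20), Gtf2h4 (-0.07) and Nthl1 (-0.0037) did not pass.

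**Figure D4:**
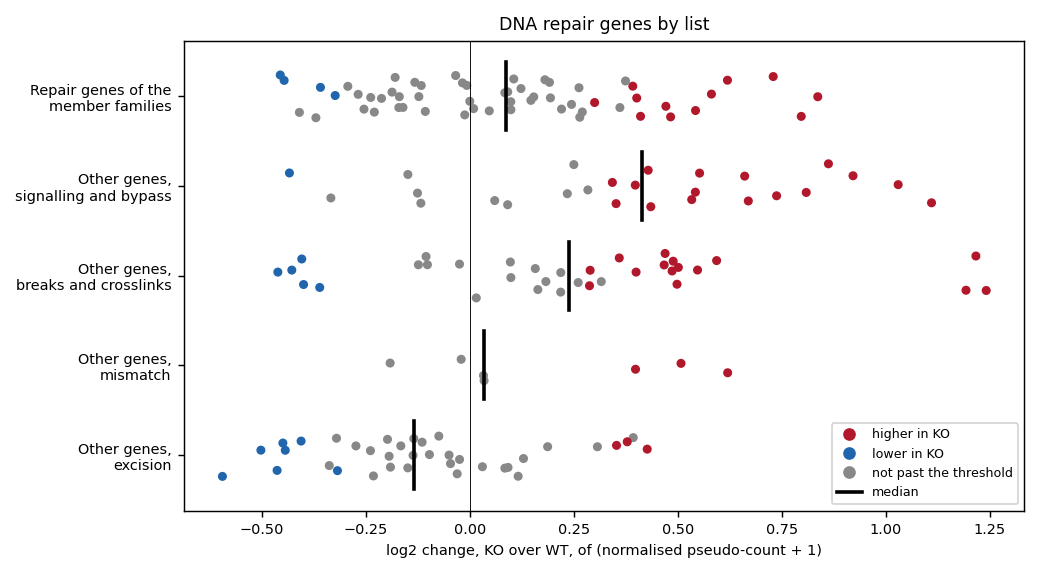
Each point is the log2 change (KO over WT, horizontal axis) of a gene, for the 58 genes of the name families and for the 4 lists of other repair genes. Red points were higher in KO gonads, blue lower and grey not past the threshold, and black bars mark medians (0.09, 0.41, 0.24, 0.03 and -0.14 from top to bottom).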

How the data were processed

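RNA from whole male gonads was made into libraries with the Illumina TruSeq RNA kit, which does not mark strand, so overlapping genes on opposite strands cannot be told apart. The authors deposited a signal per gene, upper-quartile normalised pseudo-counts; per the submitters' processing notes they used CASAVA 1.8.2, edgeR 2.6.2 and build mm9, while for the gene annotation and each tool's role the entry is not given in the sources used here. The values are not reads, the depth is unknown and no count model was run. Groups came from the genotype labels, and all 6 value columns were matched to a library by name. That the libraries are separate embryos is an assumption made here, because the labels speak of different littermates.

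The filter asked for 3 or more libraries at 10 or more and left 15116 of 16862 genes. These were tested on log2(value + 1) by limma 3.58.1 (R 4.3.3), two-sided, with a mean-dependent prior and Benjamini-Hochberg adjustment over all genes tested. Adjusted p-values are from this test. Those given for an alternative setting are from the same test fitted anew in that setting, with adjustment over the genes tested there. Log2 changes are differences of group means on the log2(value + 1) scale, which understates changes of low genes. Fold changes are 2 raised to the log2 change, so they can differ from the ratio of the printed group means. An exact permutation test of 3 against 3 libraries cannot go below p = 0.1. The script was tested on simulated data. For the trend removal, natural splines of 4 degrees of freedom on log2 length and on GC content were fitted in each library, with both taken from GENCODE vM21 by gene identifier for 14449 genes (95.6% of those tested), including all 58 repair genes. Promoters are those of RefSeq on GRCm38.p6, and gene coordinates are given on mm9 as deposited. Windows shown had at least 100 bases outside annotated exons. The symbols Rad9, Rad51l1 and Rad51l3 are older names, as in the table. Values of 2 of the 58 genes are not reported here one by one, though all counts and medians include them.

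In each role, values per library are given for up to 4 genes past the threshold in order of absolute log2 change, and where fewer than 2 passed for further genes by mean level; in each list of other repair genes up to 3 past the threshold are named. The repair genes, lists and tests were chosen with earlier results of these data known. The 16 alternative settings are pseudocounts of 0.5 and 5, no filter, a filter at 50, median of ratios scaling, equal totals, quantile normalisation, no mean-dependent prior, removal of the length and GC trend with and without WT library 1, and each library left out. Listed genes without a row in the table used here (Rmi2, Uvssa, Tdg and Hba-a1) were not analysed here.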

Additional observations from a re-analysis of the deposited data

How the results depend on the processing

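Over the 18 repair genes named by rule, 16 settings gave 288 log2 changes, of which 220 kept direction and side of the threshold. Another 59 kept direction but lost the call, 3 kept direction and gained it, and 6 turned in sign. The 6 that turned did not pass the threshold. The repair genes counted higher (12) and lower (4) came to 2 and 2 with the length and GC trend removed, and to 1 and 1 when WT library 1 was also left out. The other repair genes counted higher (37) came to 9 and 7 in those settings. The 4 lower repair genes came to 2 without the mean-dependent prior and 1 with equal totals, and the 13 lower genes of the other lists to 6 and 5. Leaving out 1 library gave 7 to 11 higher and 1 to 4 lower repair genes, and 24 to 33 higher and 5 to 12 lower genes of the other lists, with the fewest higher in both without WT 4. Calls over all genes fell in the same settings. They were 2609 higher and 2571 lower as reported, 1635 and 1397 without WT 4, and 1856 and 1783 without KO 5. Without the mean-dependent prior they were 2130 and 1944. The lower repair genes were 1 without KO 7 or WT 1 and 2 without KO 5 or WT 4, and the lower genes of the other lists were 8 without KO 5 and 5 without WT 4. The log2 changes that turned were those of Brca2 (-0.21, and -0.15 also without WT 1), Ercc1 (0.073, and 0.13 also without WT 1), and, with the trend removed and WT 1 left out, Xrcc1 (0.044) and Parp1 (-0.0092). The log2 change of Hpgds, 0.90 (adjusted p = 0.00853) as reported, was 0.60 (adjusted p = 0.0917) with the trend removed and 0.55 (adjusted p = 0.128) also without WT 1. With fewer libraries the test has less to estimate the spread from; the cause of the other shifts was not tested. No paired analysis was possible because the labels give no litter, batch or pairing. The depth behind the values is unknown, so precision rests on 3 libraries a group.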

Other observations

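A few pairs of partner proteins were set side by side as ratios of normalised values within a library, chosen after their values were seen and given without a test. The ratio of Fanca to Fance, both core subunits, averaged 0.471 ± 0.0657 in KO gonads and 0.196 ± 0.0549 in WT gonads (SD, n = 3 each). Fanca had the highest and Fance the lowest log2 change of the 58 genes, so a difference in this ratio was fixed by that choice. The ratio of Ercc1 to its partner Ercc4 averaged 1.52 ± 0.139 in KO gonads and 2.07 ± 0.206 in WT gonads, while that of Xrcc5 to Xrcc6 averaged 0.818 ± 0.0372 in KO gonads and 0.843 ± 0.0251 in WT gonads. The ratio of Fancd2 to Fanci averaged 1.17 ± 0.114 in KO gonads and 1.01 ± 0.111 in WT gonads, and the KO and WT libraries overlapped. Scaling of a library leaves such ratios as they are, but the length and GC trend does not, since partners differ in length (1375 nt for Ercc1 and 3480 nt for Ercc4). With that trend removed the log2 changes of Ercc1 and Ercc4 were 0.07 and 0.04, and those of Fanca and Fance were 0.80 and -0.03.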
